A study of Homo sapiens with 4 samples.

Results

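The genes described here are 40 genes of glycolysis and of the response to hypoxia-inducible factor 1 (HIF1), followed on 4 gene expression arrays of atovaquone-treated and vehicle-treated U266 and K562 cells. They were chosen by gene symbol, taking the probe sets that the array's annotation assigns to that symbol alone. Of the 40, 36 had such a probe set among 18417 genes measured in this way. PGAM1, a phosphoglycerate mutase, has no value because its probe sets are shared with PGAM4, and the lactate transporters SLC16A1 and SLC16A3 and the carbonic anhydrase CA9 were not listed in the annotation and were not analysed here. U266 comes from a multiple myeloma and makes its own IL-6, and K562, from a chronic myeloid leukaemia, is driven by BCR-ABL1. The groups were U266 given 15 µM atovaquone for 2 h, U266 given DMSO vehicle for 2 h, K562 given 20 µM atovaquone for 5 h and K562 given DMSO vehicle for 5 h. There was 1 array per group and so no replicate, no test was run, and the small number of arrays limits the precision of every ratio. Each array averages a whole culture, so a difference in all cells and one in a share of them cannot be told apart. Drug dose and exposure time differ between the lines, and differences in response between them cannot be told apart from those of dose and time.

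Glycolysis splits glucose into pyruvate in the cytosol and yields ATP without the respiratory chain, and lactate dehydrogenase then regenerates the NAD that the pathway needs. HIF1 is a transcription factor whose alpha subunit is hydroxylated by prolyl hydroxylases when oxygen is present and is then degraded. When oxygen is scarce the subunit persists, and HIF1 raises genes of glucose uptake, glycolysis, lactate export, blood vessel growth, collagen hydroxylation and mitophagy. Atovaquone is a hydroxynaphthoquinone antimalarial that blocks complex III, the cytochrome bc1 complex of the respiratory chain. Inhibitors of the chain cut oxygen use and mitochondrial ATP, so the question asked of these genes is whether their mRNA levels differ after such a block, and whether glycolytic genes and other HIF1 targets do so alike.

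HIF1 binds DNA at a short core that reads ACGTG at many of its sites, and this motif was looked for on both strands in the 250 bases upstream of the transcription start sites in the RefSeq table (build GRCh38.p14). The table held 35 of the members with 63 promoters. The motif lay in 25 of the 63, or 39.7%, and in 18.5% of all 35116 promoters. By gene it was present in at least 1 promoter of 22 of the 35 members (62.9%), against 21.7% of all 27305 genes of the table. For genes on the array with 1 symbol the shares were 20.3% of promoters and 25.7% of genes. A gene with more promoters in the table has more chances of a match, which the shares by gene do not adjust for. Glycolytic members held it in 14 of 22 genes and the other HIF members in 8 of 13. The letters ACGTG and their complement also overlap in CACGTG, the E-box bound by many other factors, and such an overlap was counted as 1 match. Other forms of the HIF1 core were not searched, and a match is a description of the letters and not a site. A set of 4 promoters is shown, chosen after their values were seen, with matches in capitals. ANKRD37 and BHLHE40 were the members at least 1.5-fold higher with atovaquone in U266, and LDHA and PGK1 are glycolytic enzymes with at least 2 matches whose levels differed little. Each is read 5′ to 3′ on the plus strand, from chr4:185396591-185396840, chr3:4979187-4979436, chr11:18394313-18394562 and chrX:78103998-78104247 in that order.
ANKRD37: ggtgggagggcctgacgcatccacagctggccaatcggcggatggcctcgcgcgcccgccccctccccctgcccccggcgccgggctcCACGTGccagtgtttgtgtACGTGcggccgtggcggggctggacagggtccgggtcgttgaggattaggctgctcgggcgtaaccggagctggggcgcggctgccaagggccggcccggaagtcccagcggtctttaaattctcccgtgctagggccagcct
BHLHE40: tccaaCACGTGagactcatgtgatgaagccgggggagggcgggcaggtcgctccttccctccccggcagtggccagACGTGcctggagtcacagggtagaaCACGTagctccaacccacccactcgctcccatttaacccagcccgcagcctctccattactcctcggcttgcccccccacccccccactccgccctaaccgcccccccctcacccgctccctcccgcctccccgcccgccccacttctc
LDHA: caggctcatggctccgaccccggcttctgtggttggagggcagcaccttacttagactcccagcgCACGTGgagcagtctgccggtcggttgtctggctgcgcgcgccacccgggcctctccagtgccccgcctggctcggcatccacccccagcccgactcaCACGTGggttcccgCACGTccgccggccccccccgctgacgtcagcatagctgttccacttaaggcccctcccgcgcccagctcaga
PGK1: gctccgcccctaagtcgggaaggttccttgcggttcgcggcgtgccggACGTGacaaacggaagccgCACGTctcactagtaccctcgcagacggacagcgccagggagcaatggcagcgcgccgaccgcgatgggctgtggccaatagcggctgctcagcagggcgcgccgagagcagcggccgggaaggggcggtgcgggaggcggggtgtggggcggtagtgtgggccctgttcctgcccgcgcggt

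The ANKRD37 promoter held 2 matches, 1 of them within an E-box, at 143 and 162 bases upstream of the start. That of BHLHE40 held 3 matches, 1 within an E-box, the nearest 149 bases upstream. LDHA had 2 promoters in the table, and the one shown held 3 matches, 2 of them within E-boxes, the nearest 73 bases upstream. PGK1 held 2 matches and no E-box. Promoters with 3 or more matches were 0.350% of all in the table. LDHA and PGK1 were picked for having matches, so the promoters shown do not tell how matches relate to atovaquone ratios. Other members whose levels differed little, such as ENO1 and PKM, held no match. VEGFA had no promoter in the table. Whether matches go with the ratios was not tested.

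The arrays carried the markers of their lines. Plasma cell markers were at least 2-fold higher in U266 than in K562 for all 10 with a value, and all 8 erythroid markers with a value were at least 1.5-fold higher in K562. No marker particular to megakaryocytes was looked at. Of 10 markers of other cell types, 8 had a value. Of these, 5 were at least 1.5-fold higher in K562, namely KRT8, KRT18, KRT19, EPCAM and LYZ, and 0 were higher by that size in U266. Array medians lay between 314 and 340 in intensity, and the ranks of 33252 probe sets correlated at 0.989 within U266 and at 0.990 within K562. On each array a floor was set at the 40th percentile of listed probe sets, at intensities of 305 to 331. A gene is called measured where neither array of a comparison has it under the floor. With a single array under the floor it has only a bound, written "at least". Ratios are log2 intensities, atovaquone minus vehicle, shifted so that their median over measured probe sets is 0. Genes with 2 measured probe sets gave the spread of a single probe set's log2 ratio, with SDs of 0.11 (U266) and 0.12 (K562). That spread leaves out the difference between cultures.

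With atovaquone most glycolytic members stood close to their vehicle levels in both lines. The members past 1.5-fold were the HIF targets ANKRD37 and BHLHE40 in U266 and VEGFA in K562. PFKFB3, a glycolytic member, had only a bound in U266, and its log2 ratio there was 0.74 under a floor at the 20th percentile. In U266, 31 members were measured, 1 had a bound and 4 lay below the floor on both arrays. ANKRD37 and BHLHE40 were at least 1.5-fold higher there, 2 of 32 members with a value, and 0 were at least 1.5-fold lower. Among all 11264 genes with a value in U266, 1.00% were at least 1.5-fold higher and 0.142% lower. In K562, 34 members were measured and 2 lay below the floor. VEGFA was at least 1.5-fold higher, 1 of 34, and 0 members were that much lower. Among all 11353 genes with a value in K562, 1.55% were higher by that size and 0.687% lower. The U266 share higher, 6.25% of members, stands on 2 genes, and the K562 count is near the background. Members whose log2 ratios stayed under 0.322 in size in both lines were 25 of 30 measured on all 4 arrays (83.3%), against 85.2% of all 9222 such genes.

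**Figure D1:**
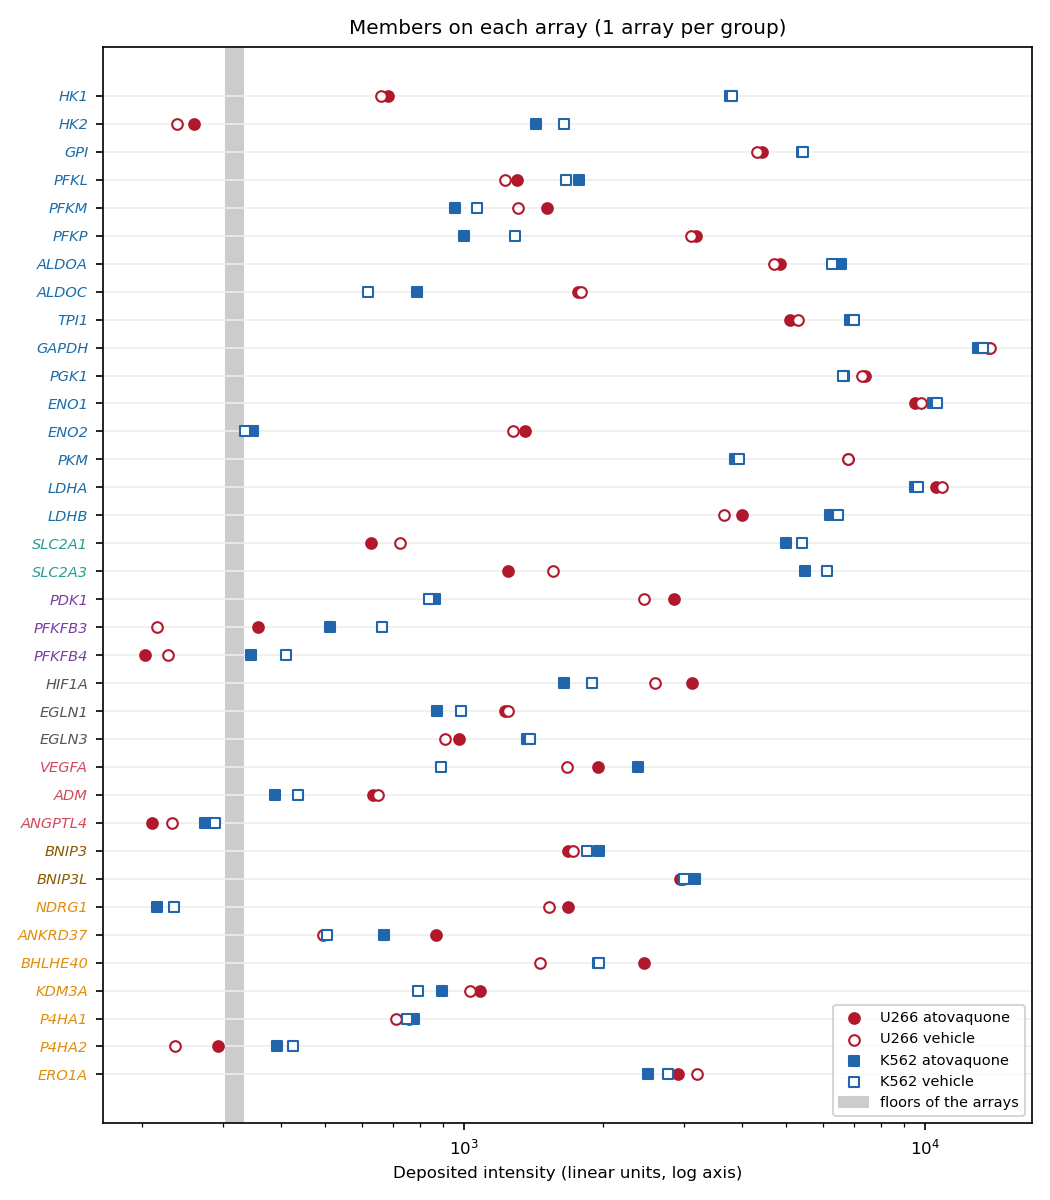
Deposited intensity of the 36 members on each array (log axis), with red circles for U266 and blue squares for K562, filled for atovaquone and open for vehicle. The grey band spans the floors of the arrays, 305 to 331, and positions should be compared within a row because each row is a different probe set; filled and open symbols lie close together in most rows and the lines lie apart in many.

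Enzymes of the glycolytic chain, from hexokinase to lactate dehydrogenase, had medians near 0 in each line. The median log2 ratio of the 15 measured in U266 was 0.04, and their ratios ran between −0.05 for TPI1, a triosephosphate isomerase, and 0.23 for PFKM, the muscle form of phosphofructokinase. The 16 measured in K562 had a median of −0.02 and ran between −0.36 for PFKP and 0.36 for ALDOC. Over all measured genes the medians were −0.00012 in U266 and −0.0057 in K562, with 95% of genes between −0.28 and 0.34 and between −0.42 and 0.48. All enzymes thus lay inside the range that held 95% of genes in either line.

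GAPDH, the dehydrogenase that makes the NADH of the pathway, had intensities of 13664 with atovaquone and 13807 with vehicle in U266. In K562 it had 12991 with atovaquone and 13320 with vehicle. LDHA, the dehydrogenase form that favours lactate, stood at 10545 with atovaquone and 10870 with vehicle in U266, and at 9512 with atovaquone and 9663 with vehicle in K562. Differences of this size are smaller than the spread between probe sets of a gene. PGK1, the first ATP-yielding step, had log2 ratios of 0.03 in U266 and 0.02 in K562. The enolase ENO1 stood at −0.03 in either line, and the pyruvate kinase PKM at 0.00 in U266 and −0.03 in K562. The hexokinase HK1, which phosphorylates glucose and so traps it in the cell, stood at 0.06 in U266 and −0.01 in K562. HK2, the hexokinase form that HIF1 is known to raise, was below the floor on both U266 arrays and had a log2 ratio of −0.20 in K562. TPI1 had another probe set, with log2 ratios of −0.11 in U266 and −0.03 in K562 against −0.05 and −0.02 for the one used. GAPDH, LDHA and ENO1 were among the brighter probe sets, on arrays whose highest intensities were 18031 to 20873, and whether ratios are compressed at such levels was not tested. Several of these genes have processed pseudogenes, and signal from related transcripts on the same probes cannot be told apart.

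PFKP and ALDOC had log2 ratios of at least 0.322 in size in K562, and no enzyme did in U266. PFKP, the platelet form of phosphofructokinase, had an intensity of 999 with atovaquone against 1290 with vehicle in K562, which is 1.29-fold lower. In U266 it stood at 3179 with atovaquone and 3108 with vehicle. ALDOC, the brain form of aldolase, was 1.28-fold higher in K562, at 790 with atovaquone against 618 with vehicle, and its U266 values were 1766 and 1790. PFKP was thus lower and ALDOC higher with atovaquone in K562, and neither differed by as much in U266. In K562, 6.74% of genes with a value were higher by at least 0.322 and 5.70% lower by at least that, so such ratios were common on these arrays. In U266 those shares were 2.93% and 1.65%.

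**Figure D2:**
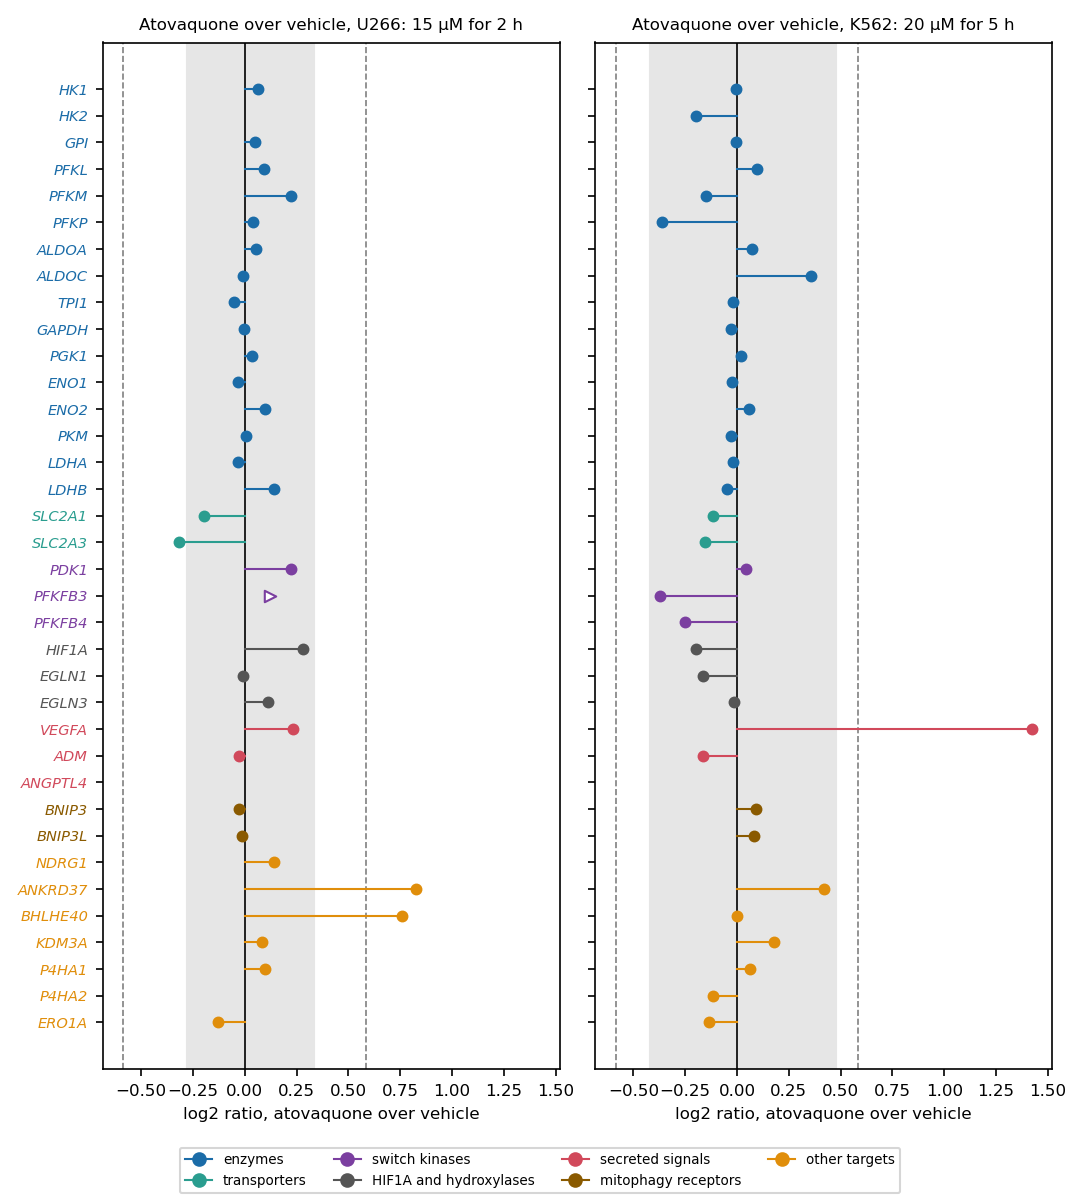
Log2 ratio of atovaquone over vehicle for each member, in U266 (left) and K562 (right), coloured by role. Dashed lines mark 1.5-fold, the grey band holds 95% of all measured genes, an open triangle is a bound and an empty row lies below the floor; VEGFA in K562 and ANKRD37 and BHLHE40 in U266 pass the dashed line.

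Both glucose transporters measured were lower with atovaquone in each line, by small amounts. SLC2A3, the high-affinity transporter GLUT3, had an intensity of 1242 with atovaquone against 1560 with vehicle in U266, a log2 ratio of −0.32. That was the lowest ratio of any member in U266, and 172 of the 10731 measured genes stood lower. In K562 it had 5483 with atovaquone against 6115 with vehicle, a log2 ratio of −0.15. SLC2A1, the basal transporter GLUT1, had 628 with atovaquone against 724 with vehicle in U266 and 4978 with atovaquone against 5414 with vehicle in K562, log2 ratios of −0.20 and −0.12. In K562, 2934 of the 10756 measured genes stood lower than SLC2A1 and 2323 lower than SLC2A3. SLC2A1 and SLC2A3 are textbook HIF1 targets, and whether HIF1 had a part in these ratios was not tested. Both transporters lay under 0.322 in size in either line.

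Of the kinases that steer glycolytic flux, PFKFB3 was higher in U266, by a bound only, and lower in K562. PFKFB3 makes fructose 2,6-bisphosphate, the allosteric activator of phosphofructokinase, and was 1.29-fold lower in K562, at 511 with atovaquone against 663 with vehicle. In U266 its intensity was 357 with atovaquone and 216 with vehicle, the vehicle value lying below the floor of 331, so it was at least 1.09-fold higher. Under a floor at the 20th percentile both U266 values were measured and the log2 ratio was 0.74. Under one at the 60th percentile PFKFB3 had only an upper bound of −0.02 in K562. PFKFB4, a related enzyme induced by hypoxia, was below the floor on both U266 arrays and had a log2 ratio of −0.25 in K562. PDK1, which phosphorylates pyruvate dehydrogenase and so holds pyruvate back from the mitochondrion, stood at 2847 with atovaquone and 2456 with vehicle in U266, a log2 ratio of 0.22, and at 864 and 840 in K562, a ratio of 0.04.

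HIF1A and its prolyl hydroxylases had no log2 ratio of 0.322 or more in size. HIF1A encodes the oxygen-labile subunit, whose regulation by oxygen is mainly at the protein level, which arrays do not measure. Its intensity was 3121 with atovaquone against 2588 with vehicle in U266. That is a log2 ratio of 0.28, the 388th highest of 10731 measured genes. In K562 its intensity was 1644 with atovaquone against 1889 with vehicle, a ratio of −0.20, so the signs were opposite. EGLN1 encodes PHD2, the main oxygen-sensing hydroxylase, and had ratios of −0.01 in U266 and −0.17 in K562. EGLN3 encodes PHD3, itself a HIF1 target, and had ratios of 0.11 and −0.01. Other components of the HIF pathway stayed under 0.322 in size as well. Of 13 such genes, 12 had a value in U266 and 11 in K562, and 0 were at least 1.5-fold different in either line. Over all genes with a value, 1.00% were at least 1.5-fold higher and 0.142% lower in U266. For K562 these shares were 1.55% and 0.687%, so a count of 0 among so few genes says little. The ratios ran between −0.20 for HIF3A and 0.10 for ELOC in U266 and between −0.19 for EP300 and 0.22 for RBX1 in K562.

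Among the secreted signals VEGFA stood out in K562. VEGFA, the growth factor of blood vessel endothelium, had an intensity of 2381 with atovaquone against 892 with vehicle in K562 and 1955 with atovaquone against 1672 with vehicle in U266. It was 2.68-fold higher in K562, the 12th highest ratio of 10756 measured genes, while 0.317% of genes with a value were at least 2-fold higher there. In U266 it was 1.18-fold higher. The K562 log2 ratio of 1.42 stayed between 1.38 and 1.43 under the 7 other settings tried. VEGFA is also a known target of ATF4, and DDIT4, which HIF1 and ATF4 both induce and which encodes an inhibitor of mTORC1, was 10.4-fold higher in K562, at 5728 with atovaquone against 552 with vehicle. DDIT4 had 1901 with atovaquone against 784 with vehicle in U266. What part either factor had in these ratios was not tested. ADM, the vasodilator peptide adrenomedullin, had ratios of −0.03 in U266 and −0.16 in K562. ANGPTL4, an inhibitor of lipoprotein lipase, was below the floor on all 4 arrays, at intensities of 210 to 288.

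ANKRD37 and BHLHE40 were the members that differed most in U266. ANKRD37, an ankyrin repeat protein gene used as a marker of hypoxia, had an intensity of 869 with atovaquone against 494 with vehicle in U266, which is 1.77-fold higher and the 49th highest ratio of 10731. In K562 it had 670 with atovaquone against 503 with vehicle, 1.34-fold higher. ANKRD37 was thus the single member with a log2 ratio of at least 0.322 in both lines. Its vehicle values lay near the floor, and under one at the 60th percentile it had only lower bounds on the log2 ratio of 0.37 in U266 and 0.05 in K562. BHLHE40 encodes DEC1, a repressor of the circadian clock that HIF1 and many stress signals induce. It had 2458 with atovaquone against 1463 with vehicle in U266, 1.69-fold higher and the 60th highest ratio, and 1955 with atovaquone against 1959 with vehicle in K562. Its log2 ratio was thus 0.76 in U266, between 0.75 and 0.77 under the other settings, and 0.00 in K562.

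**Figure D3:**
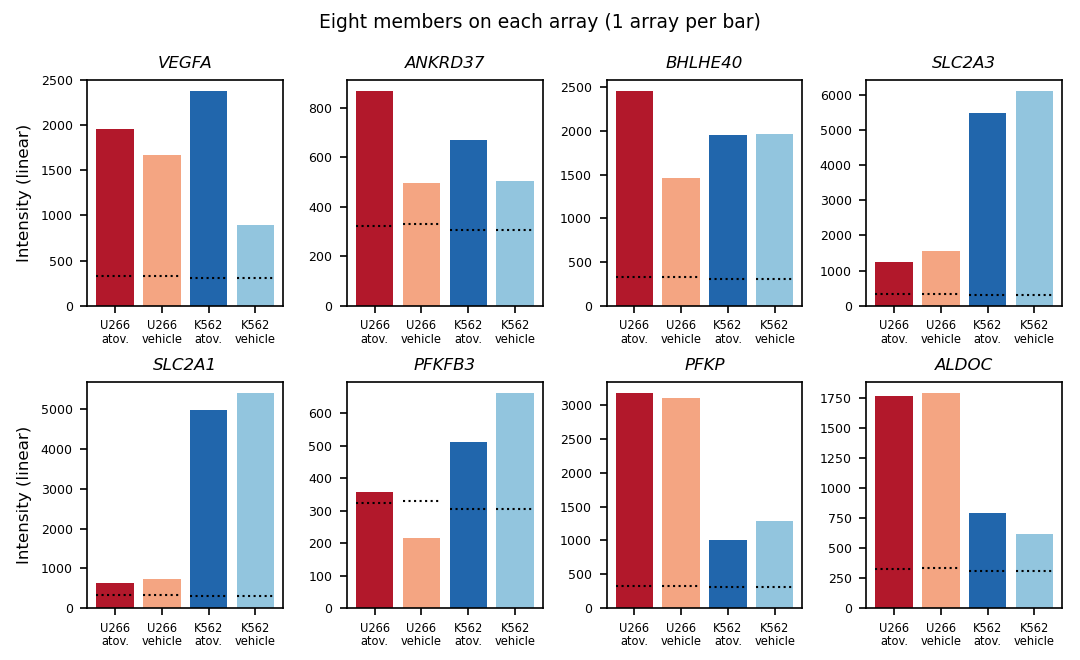
Intensity (linear axis from 0) of VEGFA, ANKRD37, BHLHE40, SLC2A3, SLC2A1, PFKFB3, PFKP and ALDOC on the 4 arrays, 1 array per bar and no error bars, with each array's floor as a dotted line. VEGFA is 2381 with atovaquone against 892 with vehicle in K562, BHLHE40 is 2458 against 1463 in U266, and the glucose transporters are slightly lower with atovaquone in each line.

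The remaining HIF targets stayed near vehicle. The mitophagy receptors BNIP3 and BNIP3L, which recruit autophagosomes to mitochondria, had ratios of −0.03 and −0.01 in U266 and of 0.09 and 0.08 in K562. KDM3A, a histone H3 lysine 9 demethylase, stood at 0.08 in U266 and 0.18 in K562. P4HA1, a catalytic subunit of collagen prolyl hydroxylase, had ratios of 0.10 and 0.06. Its relative P4HA2 was below the floor on both U266 arrays and stood at −0.12 in K562. ERO1A, the oxidase that drives disulfide formation in the endoplasmic reticulum, was slightly lower in each line, at −0.13 in U266 and −0.14 in K562. NDRG1, a differentiation and stress gene induced by hypoxia, had a ratio of 0.14 in U266 and was below the floor on both K562 arrays.

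Set side by side, the glycolytic members (enzymes, glucose transporters and switch kinases) had a median log2 ratio of 0.04 over 18 measured genes in U266, and the other HIF members one of 0.10 over 13. In K562 these medians were −0.03 over 21 genes and 0.0018 over 13. At 1.5-fold higher the counts were 0 of 19 glycolytic members with a value against 2 of 13 other HIF members in U266, and 0 of 21 against 1 of 13 in K562. Over all genes with a value the shares were 1.00% in U266 and 1.55% in K562. At such shares a count of 0 in groups this small says little. The U266 count for glycolytic members depends on the floor, since PFKFB3 reached log2 ratios of 0.74 under a floor at the 20th percentile, 0.74 with no floor and 0.63 with 50 added to the intensity and no floor. In K562 the log2 ratios of at least 0.322 in size were those of 3 glycolytic members, ALDOC, PFKP and PFKFB3, and of 2 other HIF members, VEGFA and ANKRD37. Over all genes with a value there, 6.74% were higher and 5.70% lower by that size. Glycolytic members above 0 numbered 11 of 18 in U266 and 6 of 21 in K562, and other HIF members above 0 numbered 8 of 13 and 7 of 13. Among all measured genes, 5361 of 10731 were above 0 in U266 and 5254 of 10756 in K562. Many of the K562 glycolytic ratios below 0 were smaller in size than the probe set SD of 0.12. ADM, ANKRD37, BHLHE40, BNIP3, NDRG1 and VEGFA were set aside as shared with ATF4 or immediate early lists. They include every member that was past 1.5-fold in either line. Without them the other HIF median was 0.082 over 7 genes in U266 and −0.064 over 8 in K562. The difference between the groups of members was not tested.

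Genes of the same pathways that are not members were mostly near vehicle, with a few HIF targets far from it. Of 38 further genes of glycolysis and pyruvate use, 22 had a value in U266 and 21 in K562, and 0 were at least 1.5-fold different in either line. Over all genes with a value, 1.00% were at least 1.5-fold higher and 0.142% lower in U266. In K562 these shares were 1.55% and 0.687%. The measured ratios ran between −0.23 for PGAM2 and 0.23 for DLD in U266 and between −0.33 for PDK4 and 0.30 for PKLR in K562. GAPDHS, the sperm form of GAPDH, had only a bound in K562, a log2 ratio of at least 0.32. Of 34 further HIF targets, DDIT4 alone was at least 1.5-fold higher in U266 among 28 with a value, and 0 were lower. In K562, 2 of 22 were higher and 1 was lower, or 9.09% and 4.55%. These shares are above those of all genes but stand on few genes. DDIT4, one of those higher, had the highest log2 ratio of all measured genes in K562, 3.38. PPP1R3C, a glycogen-targeting subunit of protein phosphatase 1, had 692 with atovaquone against 177 with vehicle in K562 and was at least 2.27-fold higher. JMJD6, a nuclear hydroxylase, had 450 with atovaquone against 1044 with vehicle in K562, 2.31-fold lower. In U266 JMJD6 stood at 1534 with atovaquone against 1136 with vehicle, a log2 ratio of 0.44, so its ratios had opposite signs in the lines.

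The vehicle arrays compare the lines without drug, and several steps of glucose uptake and breakdown differed there by isozyme. Ratios here are U266 over K562, and the 2 lines also differ in vehicle exposure time, 2 h against 5 h. Of 35 members with a value, U266 was at least 1.5-fold higher for 8, and K562 was higher by that size for 7. These counts are 22.9% and 20.0% of members, against 21.0% and 17.7% of all 12574 genes with a value, so the members differed between the lines about as often as other genes. At 2-fold, 5 were higher in U266 and 4 in K562, against backgrounds of 11.2% and 8.85% of genes.

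The glucose transporter members and both hexokinases were higher in K562. SLC2A1 had an intensity of 724 in U266 and 5414 in K562, 7.35-fold higher in K562, and only 16 of 9483 measured genes had a lower ratio. SLC2A3 had 1560 in U266 and 6115 in K562, 3.85-fold higher in K562. Of the glucose transporter genes outside the 40 with a value, both went the other way, with SLC2A8 at 1255 in U266 and 514 in K562, 2.48-fold higher in U266, and SLC2A6 at least 1.22-fold higher in U266. HK1 stood at 659 in U266 and 3802 in K562, 5.67-fold higher in K562. HK2 had 238 in U266, below the floor, and 1645 in K562, so it was at least 4.89-fold higher in K562. PFKFB3 followed the same direction at 216 in U266 and 663 in K562, at least 1.97-fold higher in K562. LDHB, the dehydrogenase form of oxidative tissues, had 3661 in U266 and 6463 in K562, 1.73-fold higher in K562. EGLN3 was at the edge of the count, 1.5-fold higher in K562.

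U266 in turn had higher levels of several genes further down the chain. ENO2, the neuronal enolase, had 1273 in U266 and 335 in K562, 3.86-fold higher in U266, and under a floor at the 60th percentile its log2 ratio of 1.95 became a lower bound of 1.02. PDK1 stood at 2456 in U266 and 840 in K562, 2.97-fold higher in U266, and ALDOC at 1790 and 618, 2.95-fold higher in U266. PFKP was 2.45-fold higher, with 3108 in U266 and 1290 in K562, and PKM 1.75-fold higher. Among other HIF targets NDRG1 had 1531 in U266 and 235 in K562, below the floor, and was at least 5.10-fold higher in U266. VEGFA was 1.91-fold and ADM 1.52-fold higher in U266. K562 thus had the lower vehicle level of VEGFA, and with atovaquone its intensity of 2381 was above the U266 atovaquone value of 1955.

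Several bright enzymes of the chain stood close in the lines, while HK1, LDHB and PKM, given above, did not. GAPDH, PGK1, LDHA and ENO1 had log2 ratios of 0.08, 0.16, 0.19 and −0.09 for U266 over K562. The mitophagy receptors stood at −0.08 for BNIP3 and 0.02 for BNIP3L, and ANKRD37 at 0.00. GPI, the glucose phosphate isomerase, PFKL, the liver form of phosphofructokinase, ALDOA, the main aldolase, and TPI1 were slightly lower in U266, at −0.31, −0.41, −0.39 and −0.38, and the unused probe set of TPI1 stood at 0.10. For comparison, the spread of a single probe set's ratio between the lines was an SD of 0.38, so these values are of the size of that spread. Of the 23 further genes of glycolysis and pyruvate use with a value, 4 passed 1.5-fold toward U266 and 4 toward K562, or 17.4% each way, and the median log2 ratio of the 17 measured was −0.0092. PDK2, another pyruvate dehydrogenase kinase, had the highest measured ratio of that list, 6.60-fold higher in U266, and DLAT, the E2 subunit of pyruvate dehydrogenase, the lowest, 4.62-fold higher in K562.

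**Figure D4:**
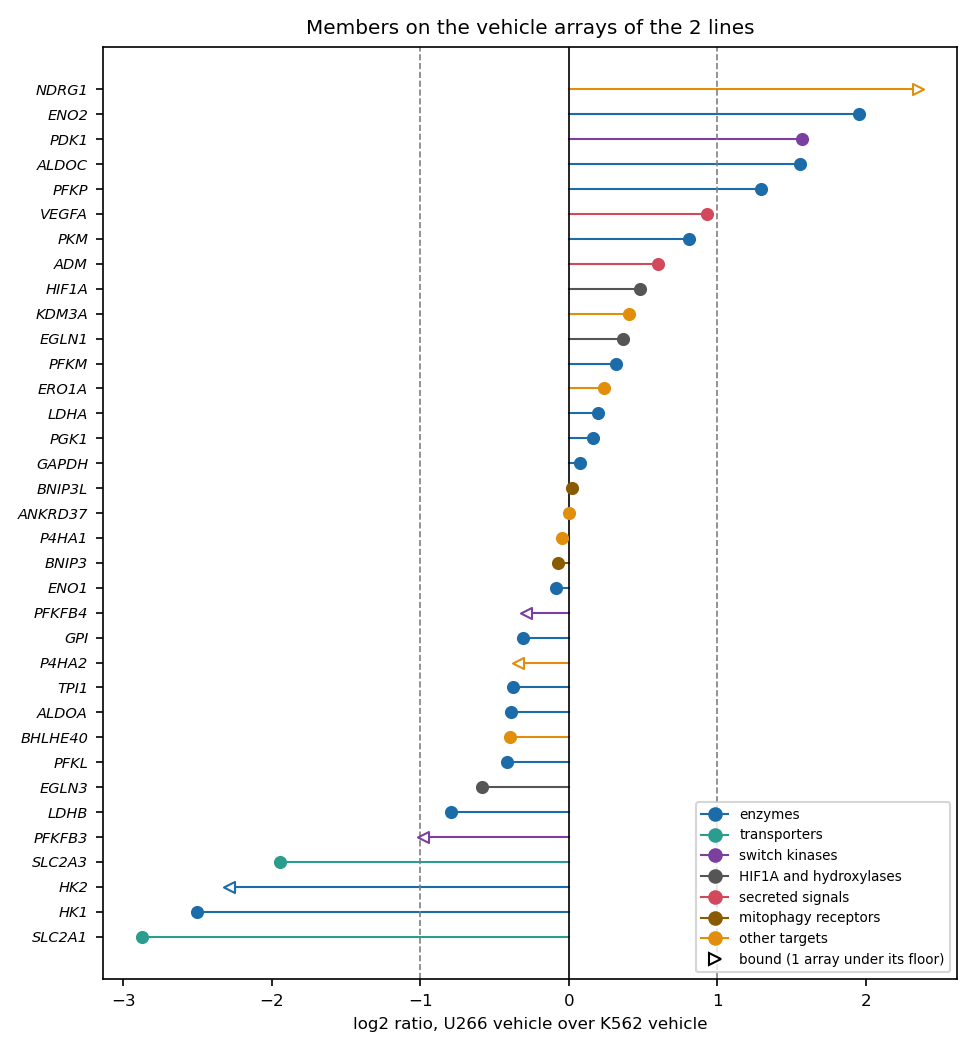
Log2 ratio of U266 vehicle over K562 vehicle for the 35 members with a value, sorted and coloured by role, with 1 array per line. Dashed lines mark 2-fold and open triangles are bounds; SLC2A1, HK1, HK2 and SLC2A3 lie at the K562 end and NDRG1, ENO2, PDK1, ALDOC and PFKP at the U266 end.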

How the data were processed

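RNA of 4 cultures, 1 per group, was extracted with Trizol and an RNeasy column and labelled as biotinylated cRNA, per the labels' protocols. The deposited values are the authors' processed intensity per probe set on a linear scale, with a lowest value of 1 on each array. Software, background correction, normalisation between arrays and probe summary are steps not given in the sources used here, and changes shared by all genes may have been removed. Of 33252 probe sets, 21214 were listed in the platform annotation, 19460 of them under a single symbol and 1754 under more, and 12038 had no entry. Entrez identifiers tied 19429 of the single-symbol sets to a present-day RefSeq gene, with 0 renamed. A gene with several probe sets took its brightest, by mean log2 intensity.

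Calculations used Python 3.11.15, numpy 2.4.6 and pandas 2.3.3 and were tested on simulated data. Lower values were raised to the floor before the ratio. Centring removed log2 ratios of −0.0096 in U266, −0.0048 in K562 and −0.02 between vehicle arrays. With 1 array per group no test was run, and members were counted at 1.5-fold. Values on each array are given for members with a log2 ratio of at least 0.322 in size with atovaquone or a 2-fold difference between vehicle arrays, and for others that illustrate a role. Further pathway genes are named at 1.5-fold, or as the ends of a list's range. GAPDH, LDHA, HIF1A, SLC2A1 with atovaquone, PDK2, DLAT, SLC2A6, SLC2A8 and GAPDHS were among those named outside that rule, after their values were seen. The members and lists were chosen with earlier results of these data known. Alternatives were no centring, quantile normalisation, floors at the 20th and 60th percentiles, no floor, log2 of the intensity plus 50, the mean of all probe sets, and leaving out members shared with other stress pathways. Promoter sequences are RefSeq's.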

Additional observations from a re-analysis of the deposited data

How the results depend on the processing

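Alternatives to the centring, normalisation, floor, offset and choice of probe set were tried one at a time. The U266 count of members at least 1.5-fold higher was 1 under a floor at the 60th percentile, where ANKRD37 had only a bound, and 3 with the lower or no floors, where PFKFB3, a glycolytic member, was the third. The other HIF median in K562 was −0.064 without members shared with ATF4 and immediate early lists. That leaves fewer genes and takes out every member past 1.5-fold in either line. Between the vehicle arrays the glycolytic median was −0.34 under a floor at the 20th percentile, −0.37 with no floor and −0.36 with log2 of intensity plus 50, against −0.0059, since members below the floor in U266 then enter. The other HIF median there was −0.011, −0.040 and −0.033 under the same settings, against 0.13. In K562 the counts of 1 higher and 0 lower held under all 7 settings. Of 255 values for single named members, 241 moved by less than the spread between probe sets, and no ratio of at least 1.5-fold changed sign. Ratios near 0, such as BHLHE40 and HK1 in K562 and ANKRD37 between vehicle arrays, did change sign within that spread. No paired analysis was possible because each comparison had 1 array per group. A fit over the 4 arrays with line and drug as terms was not run, since dose and time differ between the lines. Signal over background limits HK2, PFKFB3, PFKFB4, P4HA2, ANGPTL4 and NDRG1, which lay below the floor on at least 1 array.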
